A study of Mus musculus with 8 samples.

Results

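The genes described here encode 4 receptors of the CD28 family, Cd28, Ctla4, Icos and Pdcd1, and the ligand of Icos, Icosl. They were picked by gene symbol, by a rule that sets no measured value, though with earlier results of these data known. Each of the 5 was read by 1 probe set, the group of array probes summarised to a single value, out of 6986 genes with a single symbol. The receptors sit on the surface of T cells and adjust the signal of the T cell receptor when they bind ligands of the B7 family on antigen-presenting cells. Cd28 and Icos amplify that signal, whereas Ctla4 competes with Cd28 for shared ligands and Pdcd1, the receptor PD-1, recruits phosphatases that dampen it. Regulatory T cells, the Foxp3+ cells that restrain immune responses, are known to carry Ctla4 and Icos at high levels.

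Expression was measured on 8 Affymetrix Mouse Gene 2.0 ST arrays, 4 labelled IL10-/- and 4 labelled IL10+/+. Every array received RNA from sorted CD4+CD25+ lymphocytes, labelled as regulatory T cells, of the para-aortic nodes, the lymph nodes of the uterus, at day 9.5 of pregnancy. Each sample was a pool of 2 to 4 mice. Mice labelled IL10+/+ were of the C57BL/6 strain, to which the IL10-/- line had been backcrossed within the same colony. The IL10-/- mice also drank water with the antibiotic oxytetracycline at 2 mg/ml, and none is stated for the IL10+/+ mice, so genotype and antibiotic cannot be told apart. The same table held Il10 itself at 8.65 to 9.42 in the arrays labelled IL10-/- and 7.50 to 8.51 in those labelled IL10+/+, the opposite of a lost transcript. Which part of the gene is disrupted is not given in the sources used here, and a probe set outside that part checks no label. All directions below rest on those labels.

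Values are log2 signals, on which a step of 1 is a doubling, and the median gene lay between 6.97 and 7.12 in the 8 arrays. IL10-/- replicate 2 and IL10+/+ replicate 4 stood apart. The interquartile range of their values over all genes was 2.15 and 2.17, against 2.32 to 2.58 in the other 6 arrays. Of the T cell and regulatory T cell markers, 4 of 19 were measured, Ptprc, Themis, Ikzf2 and Ikzf4, while Cd3e, Cd4, Foxp3 and Il2ra were not analysed here. How many regulatory T cells each pool held could therefore not be read from the table. In such bulk samples, fewer cells of a type and less RNA per cell cannot be told apart.

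Promoters from the RefSeq table (GRCm38.p6) were matched for 3 of the 5 genes, not for Cd28 or Icos, and are shown as a description. A link between these sequences and the measured values was not tested. Each runs 5′ to 3′ on the gene's own strand, from 250 bases before to 50 after the start, and capitals mark matches, on either strand, to TATAAA, to GGAAA (the core of sites for the activation-induced factor NFAT), to GGGCGG (the GC box) or to TGANTCA (the site of AP-1).
Ctla4, chr1:60908775-60909074, plus strand: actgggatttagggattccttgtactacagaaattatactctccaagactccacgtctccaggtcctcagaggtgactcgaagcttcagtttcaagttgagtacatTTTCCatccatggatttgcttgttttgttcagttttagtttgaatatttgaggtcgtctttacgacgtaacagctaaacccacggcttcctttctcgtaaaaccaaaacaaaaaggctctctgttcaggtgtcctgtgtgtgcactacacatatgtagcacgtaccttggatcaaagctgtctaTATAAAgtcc
Pdcd1, chr1:94052504-94052803, minus strand: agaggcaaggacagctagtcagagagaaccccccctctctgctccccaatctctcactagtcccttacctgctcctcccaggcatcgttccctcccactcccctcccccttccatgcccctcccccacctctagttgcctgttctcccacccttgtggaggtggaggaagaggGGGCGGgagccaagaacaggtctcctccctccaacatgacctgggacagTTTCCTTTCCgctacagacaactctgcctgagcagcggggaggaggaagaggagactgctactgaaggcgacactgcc
Icosl, chr10:78069118-78069417, plus strand: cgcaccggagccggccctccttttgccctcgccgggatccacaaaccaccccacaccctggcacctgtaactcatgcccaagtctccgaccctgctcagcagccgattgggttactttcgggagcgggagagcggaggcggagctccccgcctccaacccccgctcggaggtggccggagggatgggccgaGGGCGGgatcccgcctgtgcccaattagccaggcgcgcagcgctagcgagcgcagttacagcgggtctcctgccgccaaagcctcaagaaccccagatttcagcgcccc
The Ctla4 window was 42% G and C, against 60.7% for Pdcd1 and 68% for Icosl, where the median of all 32851 promoters in the table was 52.7%. Ctla4 held 1 match to GGAAA, at position -144 on the opposite strand, with the start counted as position 1,, and 1 match to TATAAA, at position 41. Pdcd1 held 2 adjoining matches to GGAAA on the opposite strand, at positions -28 and -23, and 1 GC box at position -77. Icosl held 1 GC box at position -59 and no match to the other motifs. Of all promoters in the table, 61.3% held GGAAA, 13.6% TATAAA, 35.7% GGGCGG and 7.81% TGANTCA, so these matches are a description of the letters only.

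None of the 5 genes was called as different between genotypes. By limma over all 6986 genes, 0 of the 5 passed an adjusted p of 0.05, where 0.0286% of all genes did, namely Ctse and Efcab2. At an unadjusted p under 0.05 by limma, 0 of the 5 passed, against 4.78% of all genes. The groups overlapped for all 5, whereas they did not overlap for 2.92% of all genes. Icos and Icosl had positive differences (IL10-/- minus IL10+/+) and Cd28, Ctla4 and Pdcd1 negative ones, all between -0.15 and 0.13 on the log2 scale.

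**Figure D1:**
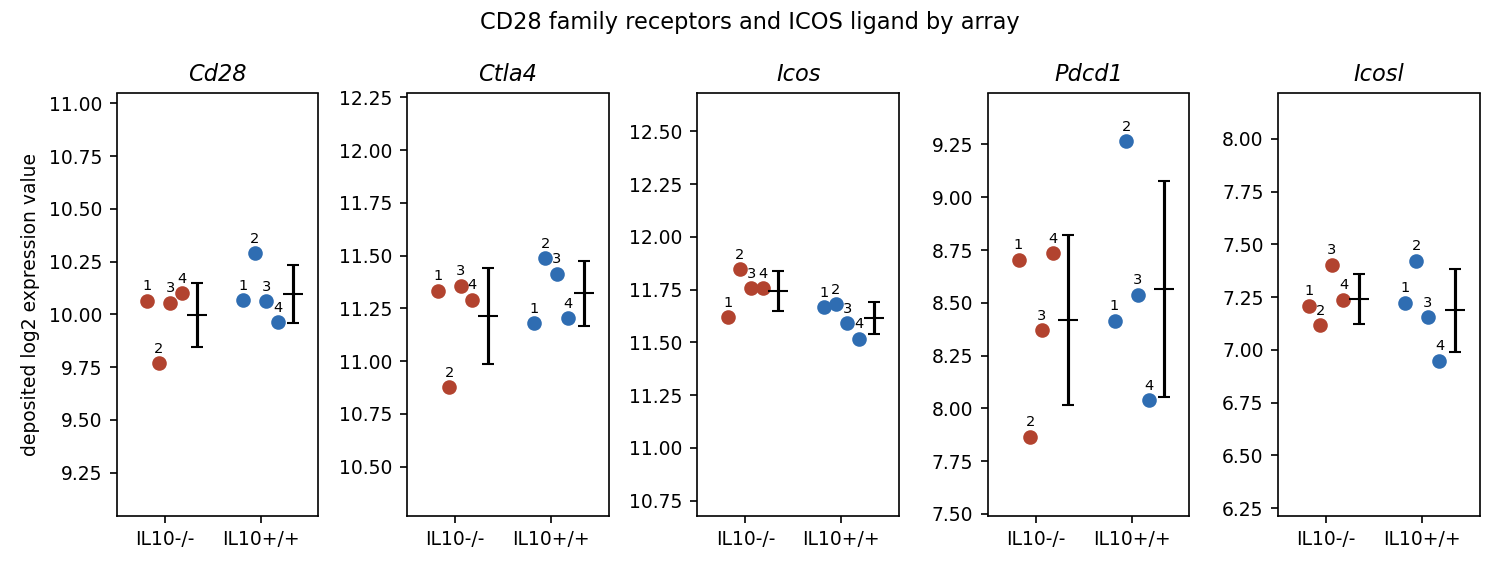
Deposited log2 values of the 5 genes in each array, 1 panel a gene with its own axis of equal span; points are arrays numbered by replicate, and the black mark and bar give the group mean and SD (n = 4 each). The groups overlap in every panel, Pdcd1 has the widest spread (range 1.40) and Icos the narrowest (0.33).

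Cd28, the receptor for Cd80 and Cd86 that supplies the main second signal for naive T cells, read 10.07, 9.77, 10.06 and 10.10 in IL10-/- replicates 1 to 4. It read 10.07, 10.29, 10.06 and 9.96 in IL10+/+ replicates 1 to 4. The lowest value was that of IL10-/- replicate 2 and the highest that of IL10+/+ replicate 2, and the remaining arrays lay close together between them. Group means were 9.998 ± 0.15 in IL10-/- and 10.10 ± 0.14 in IL10+/+ (SD, n = 4 each). The log2 difference was -0.10 (SE 0.11, 95% interval -0.35 to 0.15), or 0.934-fold, by limma with an unadjusted p of 0.408 and an adjusted p of 0.999. An exact permutation test, two-sided, gave p = 0.457, where the 70 ways to assign 4 and 4 arrays allow no p below 0.0286. As a ratio, the interval runs from 0.784-fold to 1.11-fold.

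Ctla4, the inhibitory receptor that binds the same ligands more tightly than Cd28 and on which regulatory T cells depend for suppression, read 11.33, 10.88, 11.36 and 11.29 in IL10-/- replicates 1 to 4. The IL10+/+ arrays read 11.18, 11.49, 11.41 and 11.20. As for Cd28, IL10-/- replicate 2 was lowest and IL10+/+ replicate 2 highest, and the other 3 IL10-/- arrays lay within the IL10+/+ range. Group means were 11.22 ± 0.23 and 11.32 ± 0.15 (SD, n = 4 each). The log2 difference was -0.11 (SE 0.13, 95% interval -0.40 to 0.19, limma adjusted p = 0.999), an interval of 0.759-fold to 1.14-fold. Without IL10-/- replicate 2 the difference was 0.0070, and without both that array and IL10+/+ replicate 4 it was -0.032.

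Icos, the inducible costimulator that is raised on activated, follicular and regulatory T cells, read 11.62, 11.85, 11.76 and 11.76 in the arrays labelled IL10-/-. The IL10+/+ arrays read 11.67, 11.68, 11.59 and 11.52. The 3 highest arrays were all IL10-/- and the 2 lowest IL10+/+, but IL10-/- replicate 1 lay below IL10+/+ replicates 1 and 2, so the groups overlapped. Icos averaged 11.74 ± 0.09 in IL10-/- and 11.61 ± 0.08 in IL10+/+ (SD, n = 4 each). That is 0.13 higher on the log2 scale (SE 0.10, 95% interval -0.08 to 0.34), or 1.09-fold. Icos had the smallest p of the 5 genes, an unadjusted limma p of 0.199 that 18.7% of all genes undercut, with an adjusted p of 0.999 and an exact permutation p of 0.0857. An equal-variance test per gene gave Icos an unadjusted p of 0.0741 and an adjusted p of 0.999. The difference was 0.065 without the 2 arrays that stood apart, of which IL10-/- replicate 2 was the highest for Icos and IL10+/+ replicate 4 the lowest.

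Icos was also the steadiest of the 5. Its SD within groups was 0.09, smaller than that of all but 5.17% of genes. Pdcd1 lay at the other end, with 0.46, larger than that of 97.1% of genes. Between them were Cd28 at 0.15, Icosl at 0.16 and Ctla4 at 0.19, which exceeded 30.0%, 38.8% and 54.8% of all genes. These ranks were taken over genes of all signal levels, and Icos had the highest mean of the 5, at 11.68. Whether its SD is small for genes of that level was not tested.

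Pdcd1, the checkpoint receptor PD-1, read 8.70, 7.86, 8.37 and 8.74 in IL10-/- replicates 1 to 4. It read 8.41, 9.27, 8.54 and 8.04 in IL10+/+ replicates 1 to 4. The arrays that stood apart were the lowest of their groups and the 2 lowest of all 8, and IL10+/+ replicate 2 was above every other array. It averaged 8.42 ± 0.40 in IL10-/- and 8.56 ± 0.51 in IL10+/+ (SD, n = 4 each). The log2 difference was -0.15 (SE 0.26, 95% interval -0.72 to 0.43), with a limma adjusted p of 0.999 and an exact permutation p of 0.686. This interval runs from 0.608-fold to 1.34-fold, the widest of the 5. The sign turned without IL10-/- replicate 2 (0.038) and without IL10+/+ replicate 2 (0.087).

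Icosl, the B7 family protein on B cells, dendritic cells and other antigen-presenting cells that binds Icos, read 7.21, 7.12, 7.40 and 7.24 in the IL10-/- arrays. It read 7.22, 7.42, 7.15 and 6.95 in the IL10+/+ arrays. The highest and the lowest value were both IL10+/+ arrays, so the IL10-/- values all lay inside the IL10+/+ range. It averaged 7.24 ± 0.12 in IL10-/- and 7.19 ± 0.20 in IL10+/+ (SD, n = 4 each). The log2 difference was 0.055 (SE 0.12, 95% interval -0.21 to 0.32, limma adjusted p = 0.999, exact permutation p = 0.743), and -0.025 without IL10+/+ replicate 4. The table carries no detection call. Of 226 olfactory receptor genes, which T cells are not known to express, 11 (4.87%) had a higher mean than Icosl and 0 had a higher mean than Pdcd1 or Cd28, so Icosl lay nearer to the signal of those genes. This set was chosen after the values were seen, and probe sets differ in how strongly they bind.

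**Figure D2:**
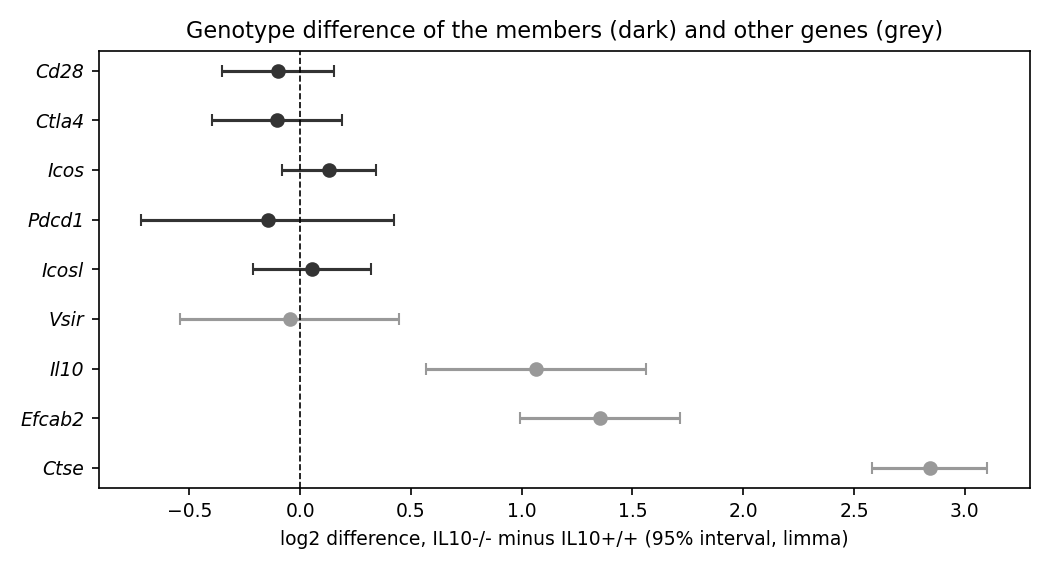
Log2 difference between genotypes, IL10-/- minus IL10+/+, for the 5 genes (dark), for the B7 family gene Vsir, for Il10 and for Efcab2 and Ctse, the genes past the threshold (grey); points are the differences and bars their 95% intervals from limma. The intervals of all 5 genes and of Vsir include 0, and that of Pdcd1, from -0.72 to 0.43, is the widest among the 5.

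The other measured B7 family gene was Vsir, which encodes the inhibitory protein VISTA. Its log2 difference was -0.047 (SE 0.22, limma adjusted p = 0.999), with 8.67 to 9.37 in the IL10-/- arrays and 8.56 to 9.58 in the IL10+/+ arrays. Cd80, Cd86, Cd274 and Pdcd1lg2, the ligands of Cd28, Ctla4 and Pdcd1, and the family receptor Btla were not analysed here.

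The balance between receptors within an array, taken as the difference of their log2 values, overlapped between genotypes for all 10 pairs. Cd28 minus Ctla4 averaged -1.22 ± 0.09 in IL10-/- and -1.22 ± 0.10 in IL10+/+ (SD, n = 4 each), a shift of 0.0073. Ctla4 minus Icos averaged -0.53 ± 0.30 and -0.29 ± 0.14, a shift of -0.24 that was -0.090 without IL10-/- replicate 2. Cd28 minus Icos shifted by -0.23, from -1.52 ± 0.09 in IL10+/+ to -1.75 ± 0.23 in IL10-/-, and by -0.12 without that array. The largest shift, 0.28, was that of Icos minus Pdcd1, from 3.05 ± 0.46 in IL10+/+ to 3.33 ± 0.48 in IL10-/-, and it was 0.058 without the same array. The shift of Icosl against its receptor was small, since Icos minus Icosl averaged 4.50 ± 0.17 and 4.43 ± 0.13, a shift of 0.076. The level of such a difference depends on the probe sets and only its shift between genotypes can be read; no test was made of these shifts.

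Across the 8 arrays, irrespective of genotype, Cd28 and Pdcd1 varied together, while r of Cd28 with Ctla4 and with Icos changed more when arrays were left out. Pearson's r between Cd28 and Pdcd1 was 0.94 (Spearman's rho 0.93), a value that 0.229% of all genes reached with Cd28. It was 0.93 over the 6 arrays without those that stood apart, and 0.90 without the 2 arrays farthest from the median of Cd28. The first of these sets kept IL10+/+ replicate 2, the highest array for both genes. The second kept IL10+/+ replicate 4, among the 2 lowest for both. Leaving out all of these arrays together was not tried, so this relation may rest on a few arrays too. Cd28 and Ctla4, neighbours on chromosome 1, gave r = 0.90 (rho 0.48), but 0.62 without the arrays that stood apart and 0.40 without the 2 farthest, so that relation rested on a few arrays. Ctla4 and Pdcd1 gave 0.82, and 0.48 without the 2 farthest. Icos, the third gene of the same stretch of chromosome, gave -0.28 with Cd28 and -0.44 with Ctla4, but 0.75 and 0.19 without the 2 farthest arrays, IL10-/- replicate 2 and IL10+/+ replicate 2, so these signs rested on 2 arrays too. With Pdcd1, Icos gave -0.11, and -0.026 without the 2 arrays farthest from the median of Icos. These are descriptions over 8 arrays that share a normalization, 10 pairs in all, with no test.

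**Figure D3:**
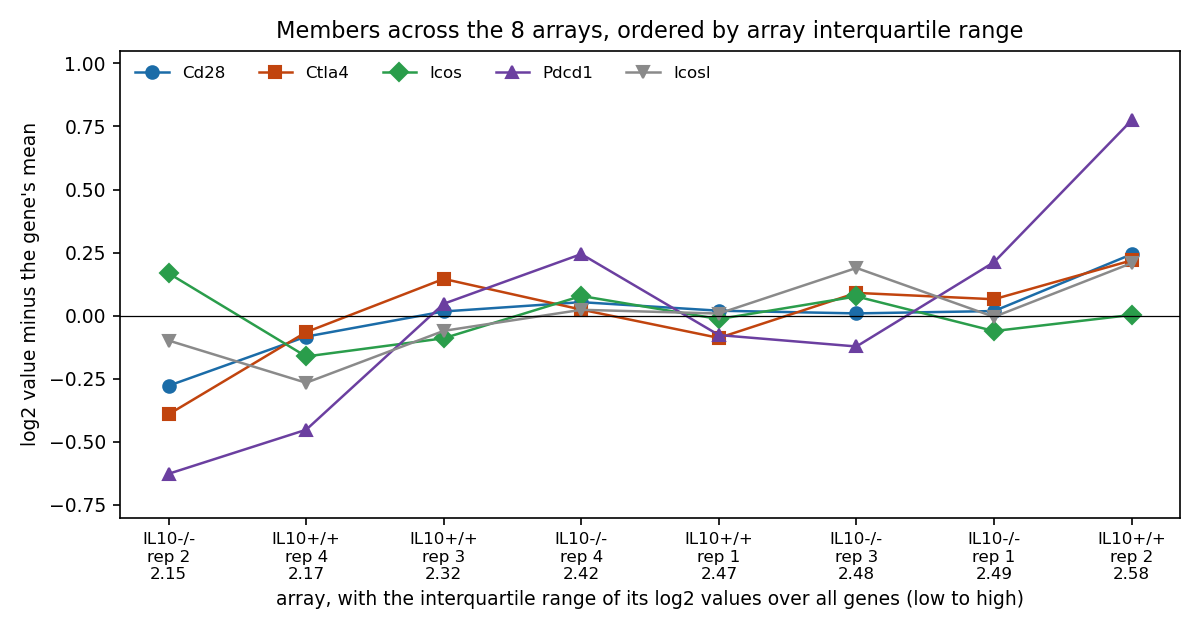
Log2 value of each gene minus its own mean over the 8 arrays, with arrays ordered from the lowest to the highest interquartile range of all log2 values (printed under each array); a line joins the values of 1 gene. Cd28, Ctla4 and Pdcd1 are low in IL10-/- replicate 2 (interquartile range 2.15) and high in IL10+/+ replicate 2 (2.58), while Icos is highest in the former.

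The width of an array's distribution moved with these genes. Pearson's r with the interquartile range was 0.85 for Cd28, 0.85 for Pdcd1, 0.85 for Icosl and 0.71 for Ctla4, but 0.04 for Icos. Cd28, Pdcd1 and Icosl were lower in both arrays that stood apart than in each of the other 6, a pattern that 9.42% of all genes showed. Pdcd1 averaged 7.95 in those 2 arrays and 8.67 in the other 6. IL10+/+ replicate 2 was the highest of the 8 arrays for 4 of the 5 genes, Icos excepted, as it was for 12.3% of all genes. The part of array width in the shared variation was not tested. Without both arrays, the log2 differences between genotypes were -0.066 for Cd28, -0.032 for Ctla4, 0.065 for Icos, -0.14 for Pdcd1 and 0.017 for Icosl, and 0 of the 5 passed limma.

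Among the 3492 other genes whose mean lay above that of the median gene, those most like each of the 5 over the 8 arrays differed from one to the next. Cd28 was matched best by Rpa1, a subunit of the single-strand DNA binding complex, with r = 0.97, then Anxa6 and Ddx5, both at 0.96. Ctla4 was matched by Ctsb, the lysosomal protease cathepsin B, at 0.98, Mpc1 of the mitochondrial pyruvate carrier at 0.97 and the RNA methyltransferase gene Nsun2 at 0.97. Pdcd1 was matched by Tmed9, Cltc and Sel1l, at r = 0.99 each. These encode a cargo carrier of the early secretory pathway, the clathrin heavy chain and an adaptor of endoplasmic reticulum quality control. Without the arrays that stood apart, r of these 3 with Pdcd1 was 0.97 or 0.98. Icos was matched by the centromere gene Cenpw at 0.97, and then less closely by the nucleoporin gene Nup43 at 0.91 and by Mettl25 at 0.90. The log2 differences of these 3 between genotypes were 0.47, 0.42 and 0.57, against 0.13 for Icos. With group means subtracted, their r with Icos was 0.94, 0.84 and 0.82, so the group difference was part of the likeness. Icosl was matched by the exportin gene Xpo4 at 0.99, then 4930430F08Rik at 0.95 and Isca2 at 0.94. Genes at r of 0.9 or more numbered 64 for Cd28, 58 for Ctla4 and 60 for Pdcd1, but 13 for Icosl and 2 for Icos. Without the arrays that stood apart, r of the named genes ran from 0.72 (Nup43 with Icos) to 0.98 (Tmed9 with Pdcd1). All were picked for the highest r over the same 8 arrays. Their r, with arrays left out too, is therefore a description and no separate evidence.

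The pathway genes around the receptors gave a similar picture of small differences. Apart from the 5 genes, 38 genes of 6 lists were measured, covering family members and ligands, signalling, trafficking, transcript control and genes induced by costimulation. Of these, 0 passed limma's adjusted threshold. At an unadjusted limma p under 0.05, 2 were higher in IL10-/- and 1 was lower, where 3.19% and 1.59% of all genes were. Of the 2 that were higher, 1 was Il10, the disrupted gene itself. Differences were positive for 15 and negative for 23, with a median of -0.068, where the median over all genes was 0.0025.

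**Figure D4:**
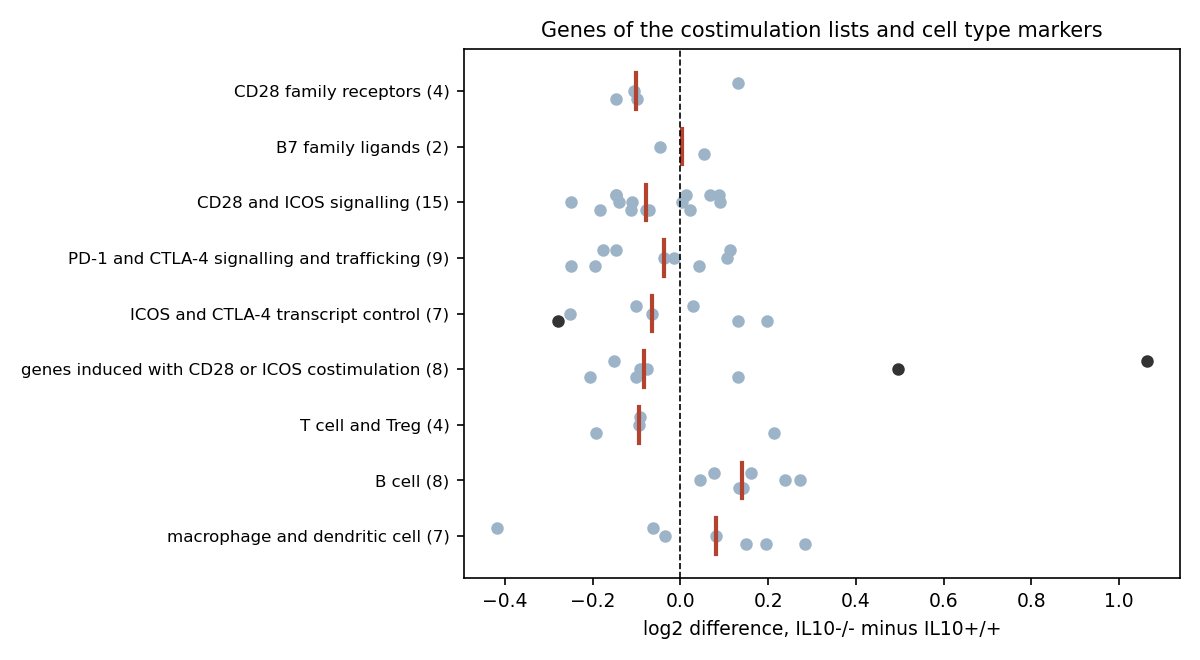
Log2 difference between genotypes, IL10-/- minus IL10+/+, of every measured gene in 6 lists on costimulation and 3 lists of cell type markers, with the number measured in parentheses; points are genes, dark where the unadjusted limma p is under 0.05, and red bars are list medians. The 3 dark points are Il10, Ifng and Zc3h12d, and all 8 B cell markers lie to the right of 0, as 50.8% of all genes do.

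Downstream of Cd28 and Icos, 15 of 39 listed signalling genes were measured, 6 positive and 9 negative, with a median of -0.079 that was 0.022 without IL10-/- replicate 2. Grap2, an adaptor that links Cd28 and the T cell receptor complex to Lcp2, came closest to a difference. It read 10.001 to 10.47 in the IL10-/- arrays and 10.48 to 10.65 in the IL10+/+ arrays, without overlap but with neighbouring ends. Groups did not overlap for 2.92% of all genes, and Grap2 was named as the smallest p of the 15. Its log2 difference was -0.25 (SE 0.12, limma unadjusted p = 0.0578, adjusted p = 0.999). The Src family kinase gene Fyn was at -0.15, Pik3r1, the regulatory subunit of the phosphoinositide 3-kinase that Icos and Cd28 recruit, at -0.11, and the GTPase gene Rac2 at -0.18. None of these passed. Lcp2 itself was at 0.022, and Tbk1, a kinase that associates with Icos, at 0.090.

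For Pdcd1 and Ctla4, 9 of 26 genes of inhibitory signalling and receptor traffic were measured, with a median of -0.037, 3 positive and 6 negative. That median was 0.027, 0.021 and 0.023 without IL10-/- replicate 2, IL10+/+ replicate 2 and IL10+/+ replicate 3, in that order. Ppp2ca, the catalytic subunit of protein phosphatase 2A, which binds Ctla4, was at -0.25 (SE 0.16), and its regulatory subunit Ppp2r5c at 0.11 (SE 0.09). Ap1b1 and Ap2b1, subunits of the clathrin adaptors that sort and internalise Ctla4, were at -0.19 and -0.18. Each had a limma adjusted p of 0.999.

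Of 20 listed regulators of the receptors' transcripts, 7 were measured, with a median of -0.064 that was 0.013 without IL10-/- replicate 2 and 0.012 without IL10+/+ replicate 1. Zc3h12d, a relative of the RNase Regnase-1 that degrades immune transcripts, read 8.88 to 9.15 in IL10-/- and 9.08 to 9.42 in IL10+/+. Its log2 difference was -0.28 (SE 0.11, limma unadjusted p = 0.0269, adjusted p = 0.884). Rc3h1, which encodes Roquin-1, the repressor of Icos messenger RNA, was at -0.064 (SE 0.09). The transcription factor genes Prdm1, Batf and Fos were at 0.20, 0.13 and -0.25, with limma adjusted p = 0.999 each.

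Of 20 genes known to be induced with Cd28 or Icos costimulation, 8 were measured and their median was -0.084. That median was -0.00019 without IL10+/+ replicate 1, -0.025 without IL10-/- replicate 3, -0.038 and -0.035 without IL10+/+ replicates 3 and 4, and 0.028 over genes above the median signal alone. Il10 and Ifng stood out from the other 6, with log2 differences of 1.06 and 0.50, though neither passed over all genes (limma adjusted p = 0.405 and 0.406). Neither overlapped between groups, as was so for 2.92% of all genes. Il10 is the gene disrupted in the IL10-/- mice, so its difference cannot be read as a response to costimulation. Ifng read 7.64 to 8.08 in IL10-/- and 7.30 to 7.37 in IL10+/+. The cytokine gene Il13 was at -0.21, Il5 at -0.15, Il4 at -0.092 and Csf2 at 0.13. These were dim probe sets. Group means of Il4 and Il5 lay between 6.05 and 6.26, below the median gene. Those of Il13 and Csf2, between 7.17 and 7.42, lay just above 7.06, the 95th percentile of the olfactory receptor genes. Myc, a growth regulator, was at -0.076 (SE 0.09).

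Genes beside the receptors on the chromosome gave no call either. Within 500000 bases of Cd28, Ctla4 or Icos, 4 other genes were measured and 0 had an unadjusted limma p under 0.05, as 4.78% of all genes had. The nearest measured ones outside the trio were Raph1, at 0.042, and 9530026F06Rik, at -0.022. Near Pdcd1, 2 of 12 genes had an unadjusted p under 0.05, both lower in IL10-/- as 1.59% of all genes were, Gm7889 at -1.12 and Stk25 at -0.39, and 0 passed the adjustment (limma adjusted p = 0.735 and 0.982). The nearest measured genes on either side of Pdcd1 were Neu4, at -0.059, and 4930440C22Rik, outside that window, at -0.088. Near Icosl, 1 of 33 genes had an unadjusted p under 0.05, the protease inhibitor gene Cstb at 0.52 (limma adjusted p = 0.624), and the genes on either side, Dnmt3l and Gatd3a, were at -0.14 and -0.31. Gm7889, Stk25 and Cstb were named after their values were seen.

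Icosl and its receptor were also set beside markers of cells that could accompany the sorted fraction. Of 19 B cell markers, 8 were measured, and all 8 had positive differences, as 50.8% of all genes had. Their median was 0.14, but 0 passed limma's threshold and 0 had an unadjusted p under 0.05. Markers read in the same arrays are not independent results. The mean of the 8 ran from 7.88 to 8.09 in the IL10-/- arrays and from 7.76 to 7.90 in the IL10+/+ arrays. Cd79b, a chain of the B cell receptor, was at 0.27 (SE 0.14), Vpreb3 at 0.24, Ralgps2 at 0.14 and Ebf1 at 0.13. Other markers of the list, such as Cd79a and Ms4a1, were not analysed here. The markers differed widely in signal. Group means of Vpreb3, Ebf1, Cr2 and Fcrla lay between 6.26 and 6.50, below the median gene. They also lay below 7.06, the 95th percentile of the olfactory receptor genes. Ighm, in contrast, averaged 12.13 in IL10-/- and 11.97 in IL10+/+. The mean of the 8 thus mixes dim and bright probe sets. Over the 8 arrays, Icosl gave r = 0.16 with that mean. Icos gave r = 0.81 (rho 0.76), and 0.54 without the arrays that stood apart. With the mean of the 4 T cell and regulatory T cell markers Icos gave r = -0.73 (rho -0.67), and -0.32 without those arrays. The part of B cells in the Icos values was not tested.

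Of 22 macrophage and dendritic cell markers, 7 were measured, with a median of 0.081 and 0 past limma's threshold. Their mean ran from 6.96 to 7.44 in IL10-/- and from 7.03 to 7.32 in IL10+/+, and r was -0.0034 with Icosl and 0.59 with Icos, the latter -0.0025 without the arrays that stood apart. The list median was -0.071 without IL10-/- replicate 2 and 0.014 without IL10+/+ replicate 4. Without both of these arrays it was -0.13, a move by more than the spread of arrays, and with array weights it was -0.074. Batf3, a factor of cross-presenting dendritic cells, was at 0.28, Lyz1 at -0.42, and the Fc receptor genes Fcer1g and Fcgr3 at 0.19 and 0.081. The T cell markers Themis, Ikzf2, Ptprc and Ikzf4 were at 0.21, -0.19, -0.092 and -0.096, with a limma adjusted p of 0.999 each.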

How the data were processed

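The deposited values are log2 expression values per probe set, which the authors normalized by RMA, corrected for GC content and averaged over probes with Partek software, per the labels' design text. Affymetrix Expression Console is named too, per the submitters' processing notes. Neither versions nor a genome build is given in the sources used here, and an array table carries no read depth, so the number of arrays limits the precision. Of 16378 probe sets, 7358 had 1 gene symbol, 456 several and 8564 none. Symbols were updated through Entrez identifiers to RefSeq (GRCm38.p6), where 7310 matched, and for each gene the probe set with the highest mean was taken, leaving 6986 genes without a signal filter. Groups were compared with limma 3.58.1 (lmFit, eBayes) in R 4.3.3, with Benjamini-Hochberg adjustment over all genes, and for the 5 genes with an exact permutation test. The fit was tested on simulated data with independent noise for each value. That simulation held no shift common to an array, so it does not cover arrays that stand apart as here.

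The 5 genes and the 9 gene lists (167 genes, 62 measured) were chosen with earlier results of these data known. Named genes were every measured family member and B7 ligand, and the 4 of smallest p in each other list. The 3 most alike for each of the 5 genes, the nearest measured neighbours and the genes past the threshold were named too. Others were named for their role or signal level after their values were seen. Arrays were not paired by replicate number in the main fit. The deviations of same-numbered arrays from their group means correlated at 0.053, -0.32, 0.027 and -0.19. Deviations from a mean of 4 arrays are not independent of each other, so these values cannot exclude a pairing. The alternatives were other normalizations, probe set choice, a signal filter, other variance models, array weights, the replicate block and arrays left out.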

Additional observations from a re-analysis of the deposited data

Results flagged for a closer look

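Dixon's ratio of gap to range exceeded its 95% critical value for 4 samples in 6 of 112 groups checked, over 56 genes; chance gives about 1 in 20 groups. Among the 5 genes described, 2 of 10 groups were affected, both by IL10-/- replicate 2. Cd28 read 9.77 in that array, against 10.06 to 10.10 in the other 3 of its group, and Ctla4 read 10.88 against 11.29 to 11.36.

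The same array lay apart for Ikzf4 (8.65, others 9.21 to 9.31), for the B cell gene Ebf1 (6.92, others 6.25 to 6.35) and for Ctse (11.49, others 11.72 to 11.75). Efcab2 read 6.79 in IL10+/+ replicate 2, against 6.87 in the other 3.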

How the results depend on the processing

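Under 17 alternatives, 0 of the 5 genes passed limma's adjusted threshold or an unadjusted p of 0.05, and the sign held in 81 values and turned in 4. With each array left out in turn, the log2 difference ran from -0.15 to 0.0070 for Ctla4, from -0.32 to 0.087 for Pdcd1 and from -0.025 to 0.13 for Icosl, turning sign at 0.0070 and 0.038 (Ctla4 and Pdcd1, without IL10-/- replicate 2), 0.087 (Pdcd1, without IL10+/+ replicate 2) and -0.025 (Icosl, without IL10+/+ replicate 4). It ran from -0.14 to -0.022 for Cd28 and from 0.097 to 0.17 for Icos. The cause was not tested.

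The count of genes past the threshold, 2 in all, was 1 with median centring, array weights, the replicate block, an equal-variance test per gene or both arrays that stood apart left out, 3 with a trended and robust variance model, and 1 to 4 with each array left out in turn. With the replicate number as a block, the Icos difference stayed at 0.13 (adjusted p = 0.999), and no call on the 5 genes changed. List medians moved by more than the spread of arrays in 7 values and by less in 146, and several of these small medians turned sign with IL10-/- replicate 2 left out. With 4 arrays a group, intervals were narrowest for Icos and widest for Pdcd1.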
